A study of Mus musculus with 2 samples.

Results

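Snap25, Syt1, Syp, Vamp2, Stx1a, Syn1, Rab3a and Cplx2 encode proteins that dock, prime and fuse synaptic vesicles, and they were followed here in mouse forebrain at embryonic day 11.5, before most synapses form. They were chosen by symbol, with earlier results of these data known. They were found through their gene IDs, as 8 of the 43346 gene rows and of the 21474 protein-coding genes. RNA was measured in 2 libraries of one group, healthy forebrain tissue of B6NCrl embryos of both sexes with no treatment or engineered allele. The forebrains of 109 embryos were pooled for replicate 1 and those of 88 other embryos for replicate 2. Each library was built by a SmartSeq protocol, which copies and amplifies complementary DNA, from an amount of total RNA equal to that of 1 cell. With one group no conditions can be compared, and no p-value is given. The tissue was pooled, so fewer cells that make an RNA and less of it per cell cannot be told apart.

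At a synapse, a vesicle fuses when the SNARE protein of its own membrane, synaptobrevin, zips together with the SNAREs of the target membrane, syntaxin and SNAP-25. Synaptotagmin senses the calcium that enters with an action potential, complexin holds the assembled SNAREs ready, the small GTPase Rab3 helps to bring vesicles to the release site, and synapsin tethers the reserve of vesicles. Several of these proteins are made by young neurons before synapses exist, and related SNAREs of the same families serve the secretory traffic of other cells.

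All 8 genes were read in replicate 1, and 4 of them were absent or nearly absent from replicate 2. In TPM (transcripts per 1000000 transcripts, a level per length), they spanned 5.46 to 90.39 in replicate 1. Stx1a, Cplx2, Syt1 and Syn1 were present in both libraries, whereas Vamp2, Syp and Rab3a had 0 counts in replicate 2 and Snap25 had 12. Detection, set at a TPM of 1 or more, was reached in both libraries by 4 of the 8, against 30.4% of all protein-coding genes. It was reached by 8 of 8 in replicate 1, against 36.7% of protein-coding genes, and by 4 of 8 in replicate 2, against 40.2%. Among the 5468 protein-coding genes whose mean TPM lay in the range of these 8 genes (4.68 to 45.2), detection in both libraries was 60.2%, and 4 of 8 is near that share.

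**Figure D1:**
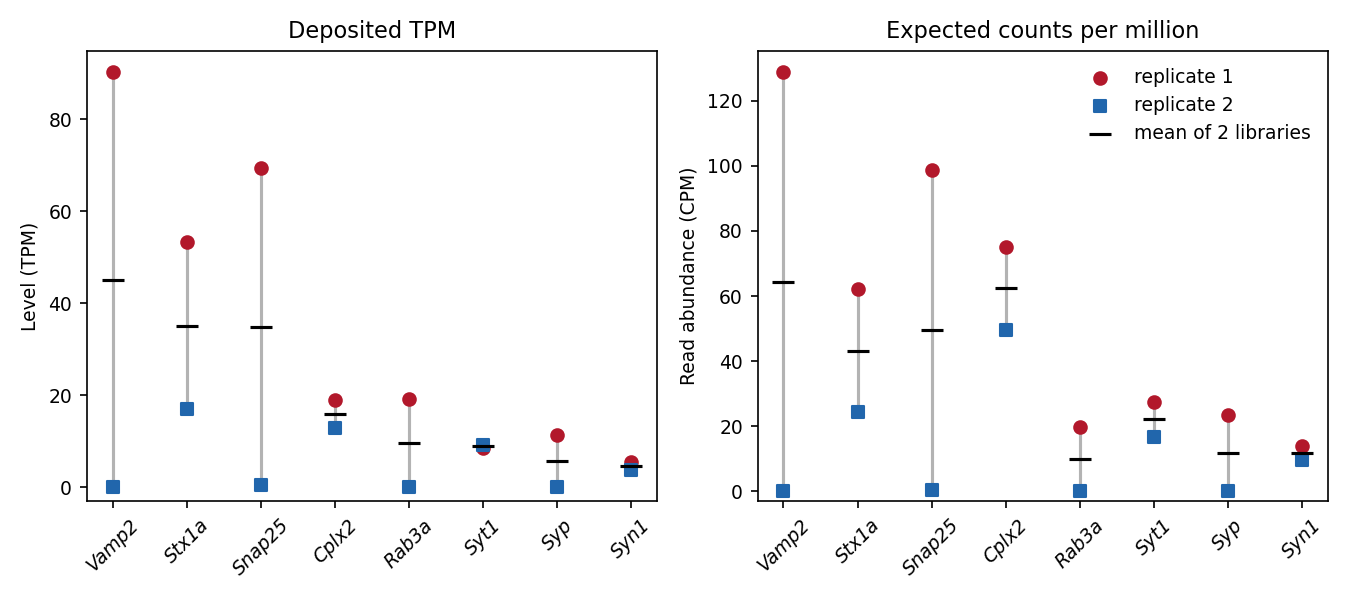
Level of each release gene in TPM (left panel) and in expected counts per 1000000 counts on genes, CPM (right panel), with a circle for replicate 1, a square for replicate 2 and a bar for the mean of the 2 libraries. Vamp2, Snap25, Rab3a and Syp are at or near 0 in replicate 2, while Syt1 and Syn1 lie close together.

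The vesicle SNARE gene Vamp2 (ENSMUSG00000020894.12, mm10 chr11:69088490-69092384, plus strand) encodes synaptobrevin. Vamp2 had 90.39 TPM from 3530 counts in replicate 1 and 0 TPM from 0 counts in replicate 2. It was the highest of the 8 in replicate 1, above 91.8% of protein-coding genes there, and had no reads in the other library. In CPM (expected counts per 1000000 counts on genes) it had 129 in replicate 1. This was 1202-fold higher than the 0.107 CPM that 3 counts, the most a count of 0 was taken to allow in a library, make in replicate 2. The deposited interval of Vamp2 in replicate 2 reached 0.615 TPM, which allows a smaller ratio. Intervals and limits of this kind cover counting error only, because amplified reads are not independent molecules. In replicate 1 the main coding transcript held 74.2% of the Vamp2 TPM, a second coding transcript 12.9%, and one annotated as retaining an intron 12.2%. By annotation 87.1% was thus coding. The second coding transcript has 163 codons against 116 in the main one, and it also holds the first 100 bases of the last intron. Together with the retained-intron transcript, it put 25.1% of the Vamp2 TPM on forms with those bases. The 3 protein-coding genes nearest to Vamp2 over the 2 libraries, by Euclidean distance of log2(TPM + 1), were Zfp811 (91.6 and 0 TPM in replicates 1 and 2), Tcea2 (87.5 and 0 TPM) and Agk (87.9 and 0.02 TPM). With 2 libraries this likeness means no more than a like level in replicate 1 and near absence in replicate 2.

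The target-membrane SNARE gene Snap25 (ENSMUSG00000027273.9, chr2:136713453-136782428, plus strand) has a pair of mutually exclusive copies of exon 5, of which 5a prevails in embryonic and newborn brain and 5b in adult brain. Both are 118 bases long. They are shown because they are the coding difference between its 2 coding transcripts, with capitals at the 31 bases that differ (73.7% identity), on the plus strand of mm10. Exon 5a lies at chr2:136769743-136769860 and exon 5b at chr2:136770057-136770174, from the annotated transcripts of GENCODE release M21.
Snap25 exon 5a: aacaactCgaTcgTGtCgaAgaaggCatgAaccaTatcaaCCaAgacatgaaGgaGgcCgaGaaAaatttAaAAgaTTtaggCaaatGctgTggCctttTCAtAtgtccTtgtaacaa
Snap25 exon 5b: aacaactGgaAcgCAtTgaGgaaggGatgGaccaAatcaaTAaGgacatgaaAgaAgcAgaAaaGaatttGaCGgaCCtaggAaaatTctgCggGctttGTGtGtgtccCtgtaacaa

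Snap25 had 69.35 TPM from 2700 counts in replicate 1 and 0.59 TPM from 12 counts in replicate 2. The libraries were far apart, with a CPM ratio of 230 in favour of replicate 1 (95% counting interval 131 to 445). In replicate 1 the transcript with exon 5b (ENSMUST00000028727.6) had 74.8% of the gene's TPM, from 2342.69 counts, and the one with exon 5a (ENSMUST00000110098.3) had 25.2%, from 357.31 counts. In replicate 2 all 12 counts went to the transcript with exon 5a, too few to set against replicate 1. The exon 5b transcript thus led in replicate 1, the library with enough Snap25 reads to split. The transcripts also differ in their 3′ untranslated region, which is 1285 bases long in the exon 5b transcript and 208 in the other. The split therefore measures the long 3′ end as well as exon 5 and cannot be read as exon 5 usage alone.

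Stx1a (ENSMUSG00000007207.6, chr5:135023482-135051100, plus strand), which encodes the target-membrane SNARE syntaxin 1A, had 53.39 TPM from 1701 counts in replicate 1 and 16.96 TPM from 681 counts in replicate 2. Stx1a was well read in both, at a CPM ratio of 2.55 (2.33 to 2.79) towards replicate 1, and was the only one of the 3 neuronal fusion SNAREs detected in both libraries. Its leading transcript in both (ENSMUST00000150838.1) is annotated as a target of nonsense-mediated decay. That transcript starts exon 9 at an upstream splice site, which adds 83 bases, shifts the frame and ends it after 256 codons, against 288 in the coding transcript. The added bases and the first bases of the shared exon, up to the stop codon in capitals, are shown from chr5:135048911-135049003 on the plus strand.
Stx1a exon 9 extension to the stop: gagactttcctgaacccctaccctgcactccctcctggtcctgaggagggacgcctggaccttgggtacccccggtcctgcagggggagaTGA

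The transcript with this extension held 59.0% of the Stx1a TPM in replicate 1 and 64.9% in replicate 2, from 1458.72 and 504.85 counts in replicates 1 and 2. The coding transcript (ENSMUST00000005509.6) had 0% in replicate 1 and 18.1% in replicate 2, the second being 3.07 TPM with a deposited interval of 2.05 to 4.21. One processed transcript held the other 41.0% in replicate 1 and 0% in replicate 2, and another held 0% in replicate 1 and 17.0% in replicate 2. Most reads of Stx1a were thus assigned to forms not annotated to give full-length syntaxin 1A, and the gene level is not a level of its coding RNA.

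Syt1 (ENSMUSG00000035864.10, chr10:108497650-109010982, minus strand), the calcium sensor of fast release, has reads assigned to transcripts from both of its start sites in each library. Its coding transcripts ENSMUST00000064054.9 and ENSMUST00000105276.3, which share the same 421 codons, begin at an upstream first exon. The processed transcript ENSMUST00000156979.1 begins at a first exon further downstream. The RefSeq promoters of both start sites are shown because the reads divide between their transcripts. They are of build GRCm38.p6, which is mm10, from 250 bases before to 50 after the start, on the minus strand. The upstream one is at chr10:109010926-109011225 with its start at base 109010975, and the downstream one at chr10:109009062-109009361 with its start at base 109009111. Capitals mark the motif of the factor Sp1, GGGCGG, searched on both strands.
Syt1 upstream promoter: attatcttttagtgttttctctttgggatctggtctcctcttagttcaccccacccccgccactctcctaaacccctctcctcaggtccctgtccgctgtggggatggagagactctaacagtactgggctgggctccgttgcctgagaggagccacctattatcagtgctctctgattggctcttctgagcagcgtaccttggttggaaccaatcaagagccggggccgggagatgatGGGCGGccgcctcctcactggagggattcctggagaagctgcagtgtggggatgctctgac
Syt1 downstream promoter: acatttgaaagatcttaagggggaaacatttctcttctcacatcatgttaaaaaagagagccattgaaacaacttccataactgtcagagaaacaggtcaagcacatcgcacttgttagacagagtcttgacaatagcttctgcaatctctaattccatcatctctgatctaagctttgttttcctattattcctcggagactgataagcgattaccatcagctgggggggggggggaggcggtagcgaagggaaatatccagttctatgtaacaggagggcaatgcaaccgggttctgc

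The upstream window is 56.7% G and C and holds 1 GGGCGG, and the downstream window is 44.0% G and C and holds none. GGGCGG was found in 35.6% of all 32817 RefSeq mouse promoters of the same 300 bases. Syt1 as a gene had 8.62 TPM from 754 counts in replicate 1 and 9.28 TPM from 467 counts in replicate 2. This was the smallest gap of the 8 in TPM, but the reads were fewer in replicate 2, with a CPM ratio of 1.65 (1.47 to 1.85). The transcripts of the upstream exon had 79.8% of the TPM and 714.42 counts in replicate 1, and 33.8% and 328.83 counts in replicate 2. The downstream transcript had 20.2% of the TPM and 39.58 counts in replicate 1, and 66.2% and 138.17 counts in replicate 2. By counts the transcripts of the upstream exon led in both, with 94.8% in replicate 1 and 70.4% in replicate 2. Those transcripts are 4745 and 4820 bases long and the downstream one 1113, and counts weight long transcripts more. The split measures whole transcripts and cannot be read as use of the start sites alone. Of the upstream transcripts, ENSMUST00000064054.9 had 714.42 counts in replicate 1 and 0 in replicate 2. ENSMUST00000105276.3 had 0 counts in replicate 1 and 328.83 in replicate 2. The deposited interval of ENSMUST00000064054.9 was 5.34 to 7.16 TPM in replicate 1 and reached 0.068 TPM in replicate 2. That of ENSMUST00000105276.3 reached 1.18 TPM in replicate 1 and was 2.67 to 3.43 TPM in replicate 2. The sum of the upstream transcripts and the downstream transcript changed order between the libraries in TPM alone. The estimated length of the gene, by which TPM divides, was accordingly 4010 bases in replicate 1 and 2367 in replicate 2.

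Cplx2 (ENSMUSG00000025867.8, chr13:54371349-54383917, plus strand), a complexin, had 19.04 TPM from 2058 counts in replicate 1 and 12.96 TPM from 1388 counts in replicate 2. It has a single annotated transcript here, so no division of reads among transcripts enters its CPM ratio of 1.51 (1.41 to 1.62). RefSeq also has a Cplx2 start at base 54302556, outside the annotated gene, and RNA from that start was not measured apart.

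Rab3a (ENSMUSG00000031840.8, chr8:70754679-70758677, plus strand), the vesicle GTPase, had 19.16 TPM from 542 counts in replicate 1 and 0 TPM from 0 counts in replicate 2. It was 184.5-fold higher in CPM in replicate 1 against the limit of 3 counts, but its deposited interval in replicate 2 reached 0.610 TPM. The last bases of Rab3a overlap Mpv17l2 on the opposite strand, and Mpv17l2 had 36.5 TPM in replicate 1 and 50.4 TPM in replicate 2, so it did not share the absence. Syp (ENSMUSG00000031144.11, chrX:7638471-7653256, plus strand) encodes synaptophysin, an abundant membrane protein of the vesicle. Syp had 11.48 TPM from 640 counts in replicate 1 and 0 TPM from 0 counts in replicate 2. It was 218-fold higher in CPM in replicate 1 against the limit of 3 counts, but its deposited interval in replicate 2 reached 1.07 TPM. An antisense gene that overlaps Syp, Gm14703, had 0 counts in replicate 1 and 372 in replicate 2, the reverse of Syp. Whether reads were assigned by strand is not stated in the text used here, so reads in such shared stretches cannot be attributed. One coding transcript held 100% of the TPM of Rab3a and of Syp in replicate 1.

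Syn1 (ENSMUSG00000037217.11, chrX:20860511-20921004, minus strand) encodes synapsin I in its 2 classical forms, Ia from ENSMUST00000081893.6 (706 codons) and Ib from ENSMUST00000115345.3 (670 codons). They part at the last exon, where the Ia transcript uses an earlier splice site that adds 38 bases (chrX:20861572-20861609, minus strand). Syn1 is also a classical target of REST, a zinc-finger repressor of neuronal genes that binds the RE1 element and recruits corepressors. The core of RE1 was searched on both strands as AGCACC, any 2 bases, GGACAG, with at most 1 mismatch in the 12 letters given, and the cyclic AMP response element as TGACGTCA. RefSeq promoters were found for 6 of the 8 genes, all but Snap25 and Vamp2, as 8 windows of 300 bases. The Cplx2 window has its start at base 54302556, upstream of the transcript counted here, which starts at base 54371349. The start of that transcript was therefore not searched. The Syn1 window was the only one of the 8 with either motif. It lies at chrX:20920869-20921168 on the minus strand with its start at base 20920918. It is shown with both in capitals, the RE1-like core from position -229 and TGACGTCA from position -159 of the start site, with no overlap.
Syn1 addition in the Ia transcript: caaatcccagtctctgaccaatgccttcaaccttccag
Syn1 promoter: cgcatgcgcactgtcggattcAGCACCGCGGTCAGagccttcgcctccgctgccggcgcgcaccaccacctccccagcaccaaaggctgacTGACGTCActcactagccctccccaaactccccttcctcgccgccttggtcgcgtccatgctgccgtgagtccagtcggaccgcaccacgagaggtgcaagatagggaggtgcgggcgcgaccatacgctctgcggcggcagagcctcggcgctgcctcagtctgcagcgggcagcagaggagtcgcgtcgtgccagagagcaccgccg

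Among all 32817 promoters the RE1-like core was found in 116 (0.353%) and TGACGTCA in 588 (1.79%), while GGGCGG was in 4 of the 8 windows. A match is a run of letters, and no binding was measured here. Syn1 was the lowest of the 8 by mean, with 5.46 TPM from 380 counts in replicate 1 and 3.90 TPM from 273 counts in replicate 2. Its CPM ratio of 1.42 (1.21 to 1.67) was the smallest of the 8. The Ia transcript had 100% of the TPM in replicate 1 and 16.7% in replicate 2, and the Ib transcript had 0% in replicate 1 and 83.3% in replicate 2. The deposited intervals of the Ia transcript, 0.855 to 5.46 TPM in replicate 1 and 0.0105 to 2.83 TPM in replicate 2, overlap, so the split between Ia and Ib was not resolved. At its 3′ end Syn1 meets Araf on the opposite strand, which had 106 TPM in replicate 1 and 78.1 TPM in replicate 2.

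Rest itself was read together with Syn1 in both libraries, at 4.24 TPM from 655 counts in replicate 1 and 1.74 TPM from 264 counts in replicate 2. Of the 12 genes listed for REST and its partners, 11 were detected in both, beside 30.4% of all protein-coding genes. Among the 11 were Hdac1 (107 and 191 TPM in replicates 1 and 2), Hmg20b (80.2 and 64.5 TPM) and Sin3a (83.3 and 36.1 TPM), which encode corepressor subunits.

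**Figure D2:**
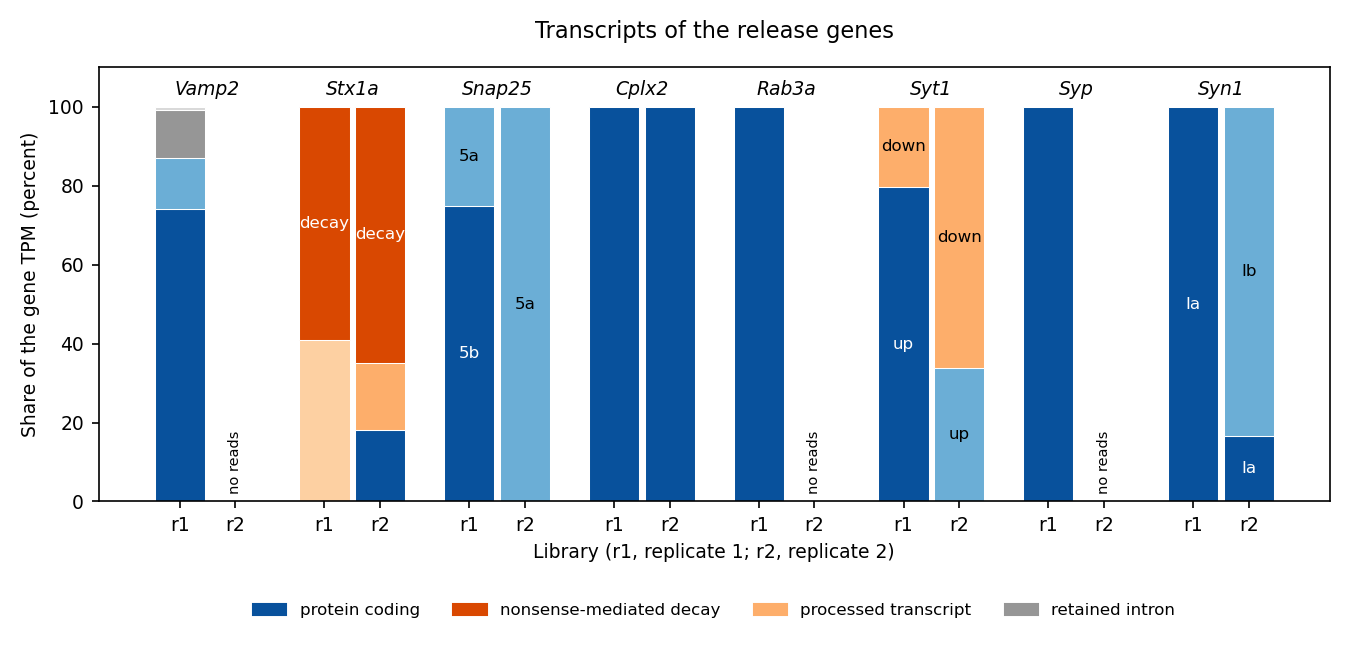
Share of each release gene's TPM (percent) on its transcripts in replicate 1 (r1) and replicate 2 (r2), with the annotated class by colour and lighter shades for further transcripts of a class. Labels mark the Snap25 exon 5 copy, the synapsin I form, the Stx1a decay transcript and the upstream or downstream start of Syt1, and the decay transcript leads Stx1a in both libraries, while the leading transcript of Syt1 and Syn1 differs by the point estimates of TPM.

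Over the 8 genes the transcript tables list 34 transcripts, 17 of them protein-coding and 18 with reads in at least 1 library. As a mean of the libraries, 65.0 ± 15.4% (SD, n = 2) of the summed TPM of the 8 genes fell to protein-coding transcripts, and 80.5% of their expected counts did. By TPM the share was 75.9% in replicate 1 and 54.2% in replicate 2. The libraries differ in which genes carry the summed TPM, so this SD is not a spread of the coding share alone. Of the 5 genes with any TPM in both libraries, Stx1a and Cplx2 had the same leading transcript in both, and Snap25, Syt1 and Syn1 did not by their point estimates, which rest on 12 counts for Snap25 in replicate 2 and on overlapping intervals for Syn1. How the shared reads of a gene were divided among its transcripts is the work of the deposited estimates and was not checked on reads.

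By mean TPM the order was Vamp2 (45.2 ± 63.9), Stx1a (35.2 ± 25.8), Snap25 (35.0 ± 48.6), Cplx2 (16.0 ± 4.30), Rab3a (9.58 ± 13.5), Syt1 (8.95 ± 0.467), Syp (5.74 ± 8.12) and Syn1 (4.68 ± 1.10; SD, n = 2 each). Neighbours in this order did not separate, since the ranges of the 2 libraries overlapped in all 7 adjacent pairs. For Vamp2, Snap25, Rab3a and Syp the SD exceeded the mean. Summed over the 8 genes, replicate 1 held 276.9 TPM and replicate 2 held 43.7 TPM, or 160 ± 165 (SD, n = 2). The 4 genes found in both libraries made up 86.5 TPM of this in replicate 1 and 43.1 TPM in replicate 2.

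All 8 genes had more CPM in replicate 1, where 47.2% of protein-coding genes of the same range of mean TPM did, and 7 of 8 had the higher TPM there, Syt1 being the exception. On the log2(TPM + 1) scale, which understates changes of low genes, the median difference of replicate 2 minus replicate 1 was -2.62 over the 8 genes. Over protein-coding genes with a mean of 1 TPM or more it was 0.13. At a mean of 10 TPM or more, 3 of the 4 genes that qualified (Vamp2, Snap25 and Stx1a) differed 2-fold, all towards replicate 1. Of all genes at that mean, 51.3% differed 2-fold in either direction and 24.7% were 2-fold higher in replicate 1. Without that limit 5 of the 8 were 2-fold higher in replicate 1, against 31.3% of protein-coding genes in the same range of level. Vamp2, Snap25, Rab3a and Syp had under 1% of their summed CPM in replicate 2. Of the 5468 genes in the range, 14.2% did so, and 21.1% had under 1% in replicate 1. With 1 library per pool, the shared direction of the 8 genes has no replicate check. Because the genes were chosen with earlier results of these data known, the shares beside them serve as description only.

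**Figure D3:**
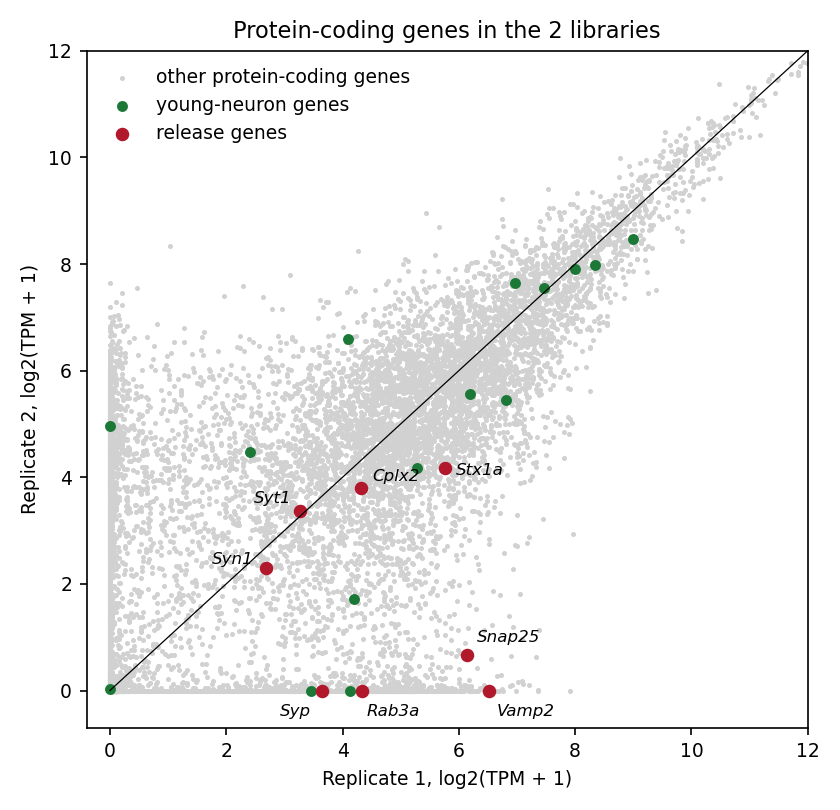
Level of every protein-coding gene on the log2(TPM + 1) scale in replicate 1 (horizontal) and replicate 2 (vertical), with the line of equality; release genes are large and labelled, and genes listed for young neurons are mid-sized. Vamp2, Snap25, Rab3a and Syp lie along the bottom edge with other genes read in replicate 1 alone, while Syt1, Syn1 and Cplx2 lie near the line.

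Of 15 genes listed for young neurons, which use the release genes, 11 were detected in both libraries, beside 30.4% of all protein-coding genes. Tubb3, a neuronal tubulin, had 512 TPM in replicate 1 and 356 TPM in replicate 2, and Stmn2, a microtubule regulator, had 176 and 187 TPM in replicates 1 and 2. The list summed to 1675 TPM in replicate 1 and 1487 TPM in replicate 2, a sum led by a few abundant genes. Of its 14 genes with a mean of 1 TPM or more, 9 had more CPM in replicate 1, 5 were 2-fold higher in TPM there and 3 were 2-fold higher in replicate 2. Single genes of the list went either way, such as Nefl (16.4 and 0 TPM in replicates 1 and 2) and Nefm (0 and 30.3 TPM), both neurofilament genes named after their values were seen. Rbfox3, which marks more mature neurons, had 0 counts in replicate 1 and 1 in replicate 2. All 10 neural progenitor genes listed were detected in both, the radial glial gene Fabp7 (438 TPM in replicate 1 and 1010 TPM in replicate 2) among them, with summed levels of 1516 TPM in replicate 1 and 2611 TPM in replicate 2. That sum is mostly Fabp7 and Vim (741 TPM in replicate 1 and 1290.1 TPM in replicate 2), and of the 10 genes 2 were 2-fold higher in replicate 1 and 2 in replicate 2. The part of the mix of cells in the result for the release genes was not tested.

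Neuroendocrine cells use the same fusion machinery for dense-core granules. Of 7 neuroendocrine genes, 3 reached detection in both libraries and 1 in replicate 2 alone, where 30.4% of all protein-coding genes reached it in both. Their summed levels were 137 TPM in replicate 1 and 93.7 TPM in replicate 2. Scg5 had 80.1 TPM in replicate 1 and 18.3 TPM in replicate 2, Scg3 had 43.8 and 10.3 TPM in replicates 1 and 2, and Chgb had 13.0 and 2.17 TPM, so these 3 granule genes were also lower in replicate 2. Cpe, a granule enzyme gene named after its values were seen, went the other way, with 0 counts in replicate 1 and 62.6 TPM in replicate 2. The part of neuroendocrine cells in the result was not tested. Of 8 markers of neural crest and peripheral neurons, 7, Prph among them, were at 0 counts in both libraries, and Th was detected, at 30.9 TPM in replicate 1 and 16.5 TPM in replicate 2. Genes for blood (8 of 9 detected in both), endothelium (4 of 6) and mesenchyme (4 of 5) were also present, with summed levels of 32296, 138 and 438 TPM in replicate 1 and 38894, 107 and 315 TPM in replicate 2.

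The partners and regulators of release formed a list of 36 genes, of which 13 were detected in both libraries, 3 in replicate 1 alone, 8 in replicate 2 alone and 12 in neither. The 36.1% in both is near the 30.4% of all protein-coding genes. Their levels summed to 508 TPM in replicate 1 and 642 TPM in replicate 2, with a median difference of 0.22 beside the -2.62 of the 8 genes. The 13 in both include general traffic factors, regulators of Rab3 and active zone genes. Nsf, the ATPase that pulls used SNARE complexes apart, had 19.7 TPM in replicate 1 and 14.98 TPM in replicate 2, and its adaptor Napa had 62.4 and 135 TPM in replicates 1 and 2. The chaperone of SNAP-25, Dnajc5, had 41.8 TPM in replicate 1 and 49.95 TPM in replicate 2. Regulators of Rab3 were also present. Its exchange factor Madd had 15.4 TPM in replicate 1 and 17.3 TPM in replicate 2. The GTPase-activating subunit Rab3gap1 had 16.9 and 19.9 TPM in replicates 1 and 2. Their reads were less alike, with Madd at 53.8 CPM in replicate 1 and 15.3 CPM in replicate 2. Rab3gap1 had 55.3 and 32.4 CPM in replicates 1 and 2.

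Active zone genes, whose products mark the release site, were read unevenly. Pclo (2.82 TPM in replicate 1 and 2.41 TPM in replicate 2) and the liprin genes Ppfia1 (7.68 and 9.17 TPM), Ppfia2 (12.3 and 1.28 TPM) and Ppfia3 (13.2 and 3.34 TPM) passed in both. Despite its like TPM, Pclo had 36.0 CPM in replicate 1 and 12.8 CPM in replicate 2. The other genes of this paragraph were chosen after their values were seen. Rims2 had 0 counts in replicate 1 and 17.8 TPM in replicate 2, Erc1 had 0.90 and 6.92 TPM in replicates 1 and 2, Erc2 had 0.16 and 2.31 TPM, and Ppfia4 had 16.2 and 0.52 TPM. Rims1 had 0 counts in both libraries, Bsn had 0 in replicate 1 and 1 in replicate 2, and the priming factors Unc13a and Unc13b had 0.07 TPM each in replicate 1 and 0.03 and 2.11 TPM in replicate 2. Cplx1, another brain complexin, had 30.6 TPM in replicate 1 and 0 counts in replicate 2.

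**Figure D4:**
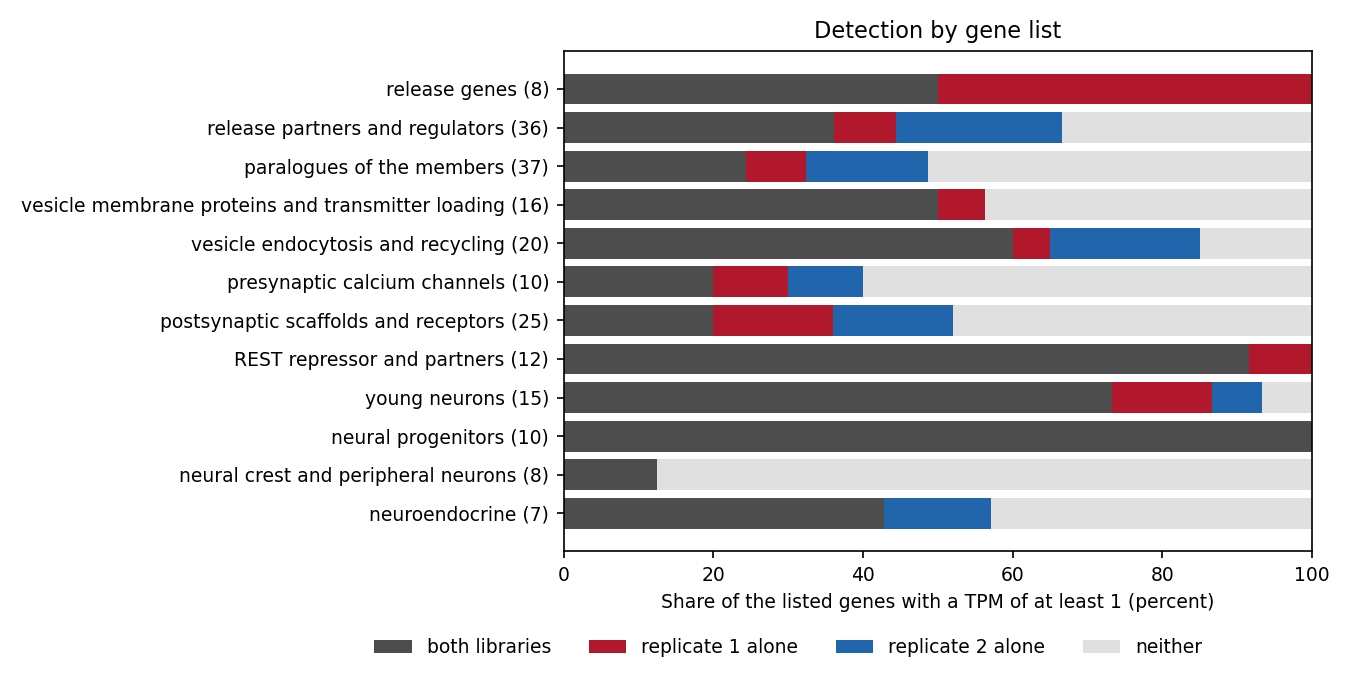
Percent of the genes of each list (number matched in brackets) with a TPM of 1 or more in both libraries, in replicate 1 alone, in replicate 2 alone or in neither. The release genes have 4 in both and 4 in replicate 1 alone, while partners and paralogues also hold genes read in replicate 2 alone.

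Each of the 8 genes has relatives, several of which were higher than the neuronal form. Of 37 paralogues matched, 9 were detected in both libraries, 3 in replicate 1 alone and 6 in replicate 2 alone, and 19 had 0 counts in both. The 24.3% in both is near the 30.4% of all protein-coding genes. The lists do not hold every relative of the 8 genes, and 1 of the 38 listed was not matched, so a family share below is a share of the listed genes alone. Among vesicle SNAREs, Vamp3, the form used in recycling traffic, had 112 TPM in replicate 1 and 161 TPM in replicate 2, while Vamp4 had 25.7 and 28.7 TPM in replicates 1 and 2 and Vamp8 had 35.3 and 53.2 TPM. Vamp2 made up 34.3% of the TPM of its family in replicate 1 and 0% in replicate 2. Among the relatives of Snap25, the widely expressed Snap23 had 36.1 TPM in replicate 1 and 25.7 TPM in replicate 2, and Snap47 had 76.2 and 262 TPM in replicates 1 and 2. Snap25 was 38.2% of its family in replicate 1 and 0.201% in replicate 2.

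Syt11, a synaptotagmin that does not bind calcium, was far above Syt1, at 132 TPM in replicate 1 and 114 TPM in replicate 2, so Syt1 was 5.41% of its family in replicate 1 and 7.41% in replicate 2. Of the relatives of Syp, Syngr3 had 21.3 TPM in replicate 1 and 20.9 TPM in replicate 2, though 10.4 and 30.8 CPM. Syngr2 had 15.6 and 58.7 TPM in replicates 1 and 2, and Syp was 23.7% of the family in replicate 1 and 0% in replicate 2. Rab3c, at 6.50 TPM in replicate 1 and 6.69 TPM in replicate 2, was the only Rab3 form detected in both. Syn1 was alone in its family, with both other synapsin genes, Syn2 and Syn3, at 0 counts in both libraries. None of the 4 paralogues listed for Stx1a or the 3 listed for Cplx2 was detected in both libraries. Stx1a was 100% of its listed family in replicate 1 and 26.9% in replicate 2, where Stx2 was read, and Cplx2 was 38.4% in replicate 1 and 100% in replicate 2.

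**Figure D5:**
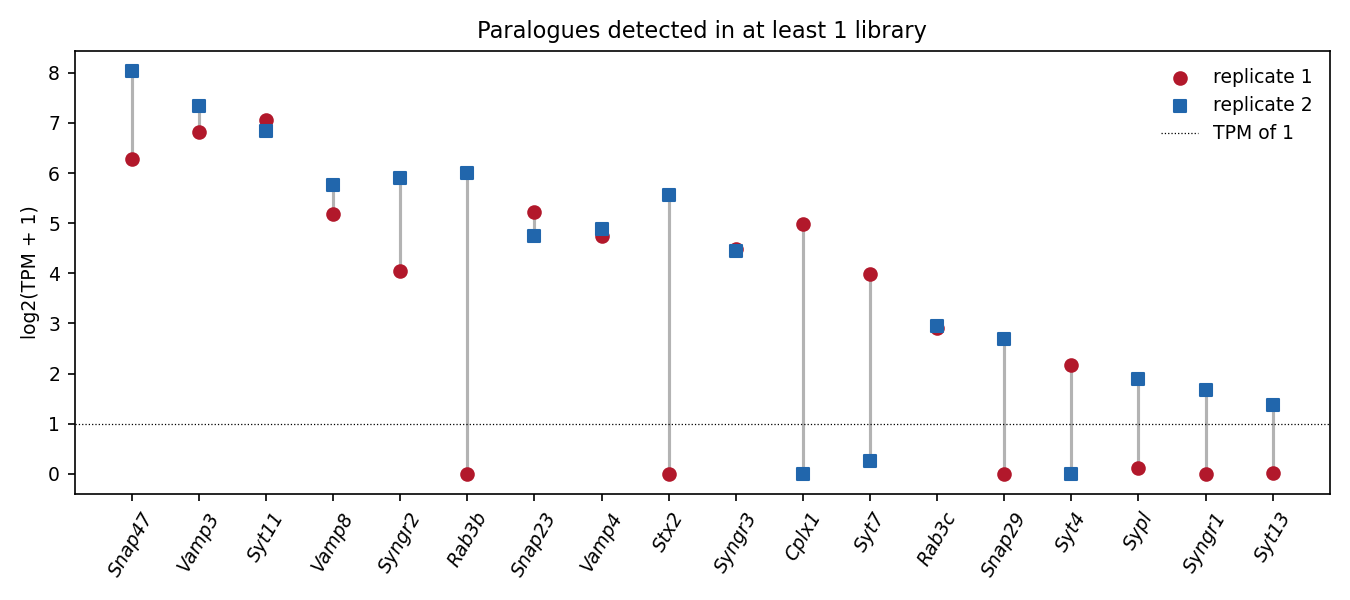
Level on the log2(TPM + 1) scale of each paralogue of the release genes detected in at least 1 library, with a circle for replicate 1, a square for replicate 2 and a dotted line at a TPM of 1. Snap47, Vamp3 and Syt11 are high in both libraries, and Rab3b, Stx2 and Cplx1 were read in one library alone.

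For other stages of the vesicle cycle, detection in both libraries is to be read beside the 30.4% of all protein-coding genes, and with lists this small no difference between stages was tested. Of 16 genes for vesicle membrane proteins and transmitter loading, 8 reached detection in both libraries and 1 in replicate 1 alone. They were led by proton pump genes that acid organelles of all cells use, such as Atp6v0c (544 TPM in replicate 1 and 477 TPM in replicate 2), and included Gad2, which makes GABA (25.4 and 80.2 TPM in replicates 1 and 2). The glutamate transporter gene Slc17a6 was also in both, at 7.57 TPM in replicate 1 and 43.7 TPM in replicate 2, and the monoamine transporter gene Slc18a2 had 9.71 TPM in replicate 1 and 0 counts in replicate 2. The 7 at 0 counts in both were Sv2a, Sv2b, Sv2c and the transmitter transporters Slc17a7, Slc17a8, Slc32a1 and Slc18a3. These 7, Slc17a6 and Slc18a2 were named after their values were seen. Of 20 genes for endocytosis and recycling, 12 were in both, 1 in replicate 1 alone and 4 in replicate 2 alone, with the clathrin adaptor Ap2m1 at 556 TPM in replicate 1 and 549 TPM in replicate 2. Of 10 presynaptic calcium channel genes, Cacnb3 (48.9 TPM in replicate 1 and 33.7 TPM in replicate 2) and Cacnb1 (28.6 and 1.37 TPM) were in both and 6 were in neither. Of 25 postsynaptic genes 5 were in both, led by the adhesion gene Nlgn3 (11.0 and 44.3 TPM in replicates 1 and 2), 4 were in replicate 1 alone, 4 in replicate 2 alone and 12 in neither.

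Sequencing was of like depth, with 28639678 expected counts for replicate 1 and 28948074 for replicate 2. Of these, 4.35% and 3.35% lay on rows without a mouse gene ID, the spike-ins among them. Replicate 1 had 8928 detected genes and replicate 2 had 9813. The floor of 3 counts, 0.110 CPM in replicate 1 and 0.107 CPM in replicate 2, limits what the libraries held and not what the tissue made.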

How the data were processed

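RNA of mouse forebrain at embryonic day 11.5 was sequenced in 2 libraries of one group, grouped by the replicate number in the labels. The authors deposited, per library, a gene and a transcript table with expected counts, which are estimated and need not be whole, TPM, FPKM, the percent of a gene's TPM on each transcript, and interval limits, read here as a score. The deposited text names assembly mm10 and annotation M4; for the aligner, the quantifier and any use of strand the sources used here name nothing. Spike-ins count in the TPM total, so their share scales the level of each gene.

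The 96 spike-in rows and all other rows without a mouse gene ID were left out. Symbols, classes and coordinates came by gene ID from GENCODE M21, also mm10, which matched 42462 of 43346 gene rows (98.0%). All 34 transcripts of the 8 genes have the same length in both releases. Exon sequences came from the M21 transcripts and promoters from RefSeq. CPM is expected counts per 1000000 counts on genes. Differences are on log2(TPM + 1). Ratios carry 95% counting intervals, and a count of 0 was taken to allow 3 counts.

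The genes named are the 8, every partner or paralogue detected in both libraries, the 4 highest detected members of other lists, Rest, and the 3 nearest genes to the highest of the 8. Overlapping neighbours and genes read in one library or neither, where outside this rule, were named after their values were seen. Some genes that the rule takes are left out of the text. The 8 genes and all lists were chosen with earlier results of these data known. Alternatives were other units and scalings (edgeR 4.0.16 TMM and DESeq2 1.42.0 size factors on rounded expected counts), thresholds, pseudocounts and leaving out each library. The 2-fold rule was run on simulated counts, in CPM and with counting error alone. Without amplification error, that run cannot tell how many 2-fold differences here are technical. With 1 library per pool, the spread between libraries may be technical.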

Additional observations from a re-analysis of the deposited data

How the results depend on the processing

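Of 58 alternative values computed, 50 stayed within the spread of the libraries or within 1.5 times the count, and 8 did not. For the summed TPM, the exon 5a share and the coding share, a value from 1 library always lies within the SD of 2. Those values could only count as staying, so the count of 50 is no measure of robustness. The SD of the summed TPM, 165, also exceeds its mean of 160, so a change of unit could hardly move it. Leaving out 1 library at a time gave 4 to 8 of the 8 release genes detected, 16 to 21 release partners and 12 to 15 paralogues, where both libraries together gave 4, 13 and 9. At a TPM of at least 5, 7 release partners were detected in both libraries. Of the 8 release genes, 5 differed 2-fold at a mean TPM of at least 1 and also with no filter on low values, against 3 at a mean of at least 10, because more of them were counted. The coding share of the 8 genes was 80.5% of expected counts against 65.0% of TPM, since counts weight long transcripts more. Rescaling TPM to genes alone moved Syt1 to 9.67 TPM, from 8.95. The share of Snap25 TPM on the exon 5a transcript, 62.6% as a mean, ran from 25.2 to 100% when a library was left out, and the upper value rests on 12 counts. No paired analysis was possible because there is one group. Depth was alike in both libraries, and with 2 libraries an SD is itself very uncertain.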
